A study of Mus musculus with 2 samples.

Results

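The C-type lectin genes were taken as all genes whose symbol begins with *Clec* or *Cd209*, together with *Cd207*, *Mrc1*, *Mgl2* and *Ly75*. These were 41 of the 31053 counted genes. They were measured in 1 dermal and 1 epidermal single-cell library from wild-type C57BL/6 mice, labelled as 10 week old, whose ears were treated with imiquimod (IMQ), which activates a Toll-like receptor and gives psoriasiform inflammation, on 5 days in a row. The study's methods load CD45+ live cells from dermis and all live cells from epidermis. No untreated library was analysed here, so every value describes IMQ-treated skin. After filtering, the dermal library kept 4567 cells with 38119957 transcripts counted by molecular tags (UMIs) and the epidermal library 4034 cells with 100357619. The libraries shared 28 cell barcodes among the kept cells.

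C-type lectins are proteins with a carbohydrate recognition fold that on myeloid cells act as receptors for microbial sugars, glycolipids and products of dying cells. Some, such as the receptors encoded by *Clec4e* (Mincle), *Clec4d* (MCL) and *Clec4n* (dectin-2), pair with the adaptor FcRγ, encoded by *Fcer1g*, and signal through SYK and CARD9. Others, such as those encoded by *Clec4a2* (DCIR) and *Clec12a* (MICL), carry an inhibitory motif that recruits phosphatases, and a further group, including the mannose receptor *Mrc1*, langerin (*Cd207*) and *Ly75*, takes up ligands for degradation or antigen presentation.

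Of the 41 genes, 28 reached at least 20 UMIs over the neutrophil-, monocyte-, macrophage-, dendritic cell- and Langerhans cell-like cells. The other 13 did not. *Clec2l*, *Cd209c*, *Clec4g*, *Clec3b*, *Clec1b*, *Clec2e*, *Clec14a*, *Clec4b2* and *Clec12b* had between 1 and 18 UMIs there, *Clec2h* had 0 there, and *Clec4f*, *Clec18a* and *Clec3a* had no UMI in any kept cell. *Clec7a*, the dectin-1 gene, is not among the counted genes, so it could not be analysed here. GENCODE M21 classes it as a polymorphic pseudogene. In the GENCODE M21 annotation of GRCm38, 23 of the 41 lie on chromosome 6 and 10 on chromosome 8. *Clec4a2* (chromosome 6, 123106428 to 123143999), *Clec4n* (123229843 to 123247021), *Clec4d* (123262111 to 123275265) and *Clec4e* (123281789 to 123289870) are neighbours, and *Cd209a* (chromosome 8, 3743397 to 3748984) and *Cd209f* (4102787 to 4105835) belong to a second group. Sequence is shared within the family: of the runs of 50 bases in the last 500 bases of the longest transcript, 20.4% of those of *Clec10a* also occur in *Mgl2*, 15.1% of those of *Clec4b1* in *Clec4a2* and 30.2% of those of *Clec1b* in *Clec9a*. The counts of these genes are uncertain for this reason, by an amount that was not tested.

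Promoter sequences from RefSeq (GRCm38.p6) were found for 35 of the 41 genes. Sequences are shown for a pair of neighbouring genes that shared the neutrophil-like cells as their leading class and for a pair of *Cd209* genes that shared the dendritic cell-like cells. Each line gives the 250 bases before the start site, 5′ to 3′ on the strand of the gene, for *Clec4d* at chr6:123261857-123262106 (+), *Clec4e* at chr6:123289872-123290121 (−), *Cd209a* at chr8:3748985-3749234 (−) and *Cd209d* at chr8:3878500-3878749 (−). Capitals mark matches to the searched motifs.
Clec4d: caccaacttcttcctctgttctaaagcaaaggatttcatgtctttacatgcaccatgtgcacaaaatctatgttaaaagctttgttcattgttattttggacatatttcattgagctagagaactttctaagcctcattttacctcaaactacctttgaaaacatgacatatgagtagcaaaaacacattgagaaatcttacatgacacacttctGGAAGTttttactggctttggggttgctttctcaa
Clec4e: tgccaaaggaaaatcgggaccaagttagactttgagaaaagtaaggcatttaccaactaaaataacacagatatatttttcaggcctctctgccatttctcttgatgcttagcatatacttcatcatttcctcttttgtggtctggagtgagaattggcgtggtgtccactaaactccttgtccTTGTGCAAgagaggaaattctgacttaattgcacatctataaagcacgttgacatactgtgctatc
Cd209a: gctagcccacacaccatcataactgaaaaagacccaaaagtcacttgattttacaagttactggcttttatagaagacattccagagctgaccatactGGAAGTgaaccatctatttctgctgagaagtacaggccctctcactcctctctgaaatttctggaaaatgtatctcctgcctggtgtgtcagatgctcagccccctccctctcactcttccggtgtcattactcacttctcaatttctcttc
Cd209d: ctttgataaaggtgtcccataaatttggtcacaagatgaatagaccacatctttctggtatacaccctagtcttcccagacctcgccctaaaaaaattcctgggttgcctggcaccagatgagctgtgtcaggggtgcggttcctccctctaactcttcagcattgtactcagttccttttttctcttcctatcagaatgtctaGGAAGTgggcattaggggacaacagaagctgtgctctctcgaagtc

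The start sites of *Clec4d* and *Clec4e* lie 27764 bases apart on opposite strands. GGAAGT, the core of sites for ETS factors such as PU.1, was searched on both strands and lies 35 to 30 bases before the start of *Clec4d*, 152 to 147 before that of *Cd209a* and 46 to 41 before that of *Cd209d*. TTGCNNAA, a C/EBP site, was matched on the opposite strand 66 to 59 bases before the start of *Clec4e*. Among all 32851 promoters, 19.7% hold GGAAGT, 9.56% TTGCNNAA, 6.75% the AP-1 site TGANTCA and 1.41% the NF-κB site, against 8, 6, 8 and 1 of the 35 lectin promoters. A match is a description of the letters only, and the searched motifs do not overlap in the shown sequences.

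Cells were clustered without the lectin genes and named from markers that include none of them. The dermis gave 701 neutrophil-like, 860 monocyte-like, 1418 macrophage-like and 354 dendritic cell-like cells, and the epidermis 152 Langerhans cell-like, 125 macrophage-like and 38 neutrophil-like cells. The names rest on unequal evidence. Dermal macrophage-like cluster 2 (621 cells, led by *Rab7b*) and monocyte-like cluster 5 (357 cells, led by *Vcan*) each passed with only 3 markers, whereas monocyte-like cluster 3 passed with 7 of 8, mature dendritic cell-like cluster 17 with 8 of 8 and the Langerhans cell-like cluster with 8 of 8. Epidermal macrophage-like cells also passed with 5 of the 8 monocyte markers, and dermal cluster 17 with 6 of the 8 Langerhans cell markers. Levels are given as CPM, the UMIs of a gene per 1000000 UMIs of the cell group, with exact 95% Poisson intervals. All intervals cover counting error only, and as each tissue had 1 library, no test between cell groups or tissues was possible. Since UMIs are counted at the 3′ end, levels of different genes have no length term.

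Lectin transcripts were also found in cells that should lack them. Dermal fibroblast-like cells (381 cells) carried *Clec4d* at 145 CPM (134 to 157), *Clec4e* at 144 CPM (133 to 156) and *Clec4a2* at 107 CPM (96.9 to 117). The CD45+ sort given in the methods would be expected to remove these cells, but the labels speak of live cells only. In the 2902 keratinocyte-like cells of the epidermal library *Clec4d* was at 0.802 CPM and *Clec4a2* at 0.979 CPM. A dermal gene was taken as not distinguished from the fibroblast-like cells where neither its CPM nor its thinned share of cells exceeded the upper end of their 95% interval, so that some such genes lie slightly above the fibroblast-like level itself. This held for 10 of the 28 genes in dendritic cell-like cells, 9 in macrophage-like, 14 in monocyte-like and 14 in neutrophil-like cells. *Clec11a* is among them in each class, although fibroblast-like cells held 163 of its 273 dermal UMIs, so for this gene their level is no measure of background. Both measures are relative to the depth of a cell. Neutrophil-like cells were shallower than fibroblast-like cells (median 3623 against 9374 UMIs), so an equal number of stray UMIs per cell would weigh more in them. UMIs per cell were not compared. The source of the lectin UMIs other than *Clec11a* in fibroblast-like cells was not tested. The rule used fibroblast-like cells only, and other classes stood higher. Summed over the lectin genes, Schwann cell-like cells (49 cells) were at 1201 CPM, against 725 CPM in fibroblast-like cells. They held 91 *Clec4d* and 83 *Clec4e* UMIs among 298181. A gene that passes the rule, such as *Clec4d* in monocyte- and macrophage-like cells, is thus not set apart from every such class.

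**Figure D1:**
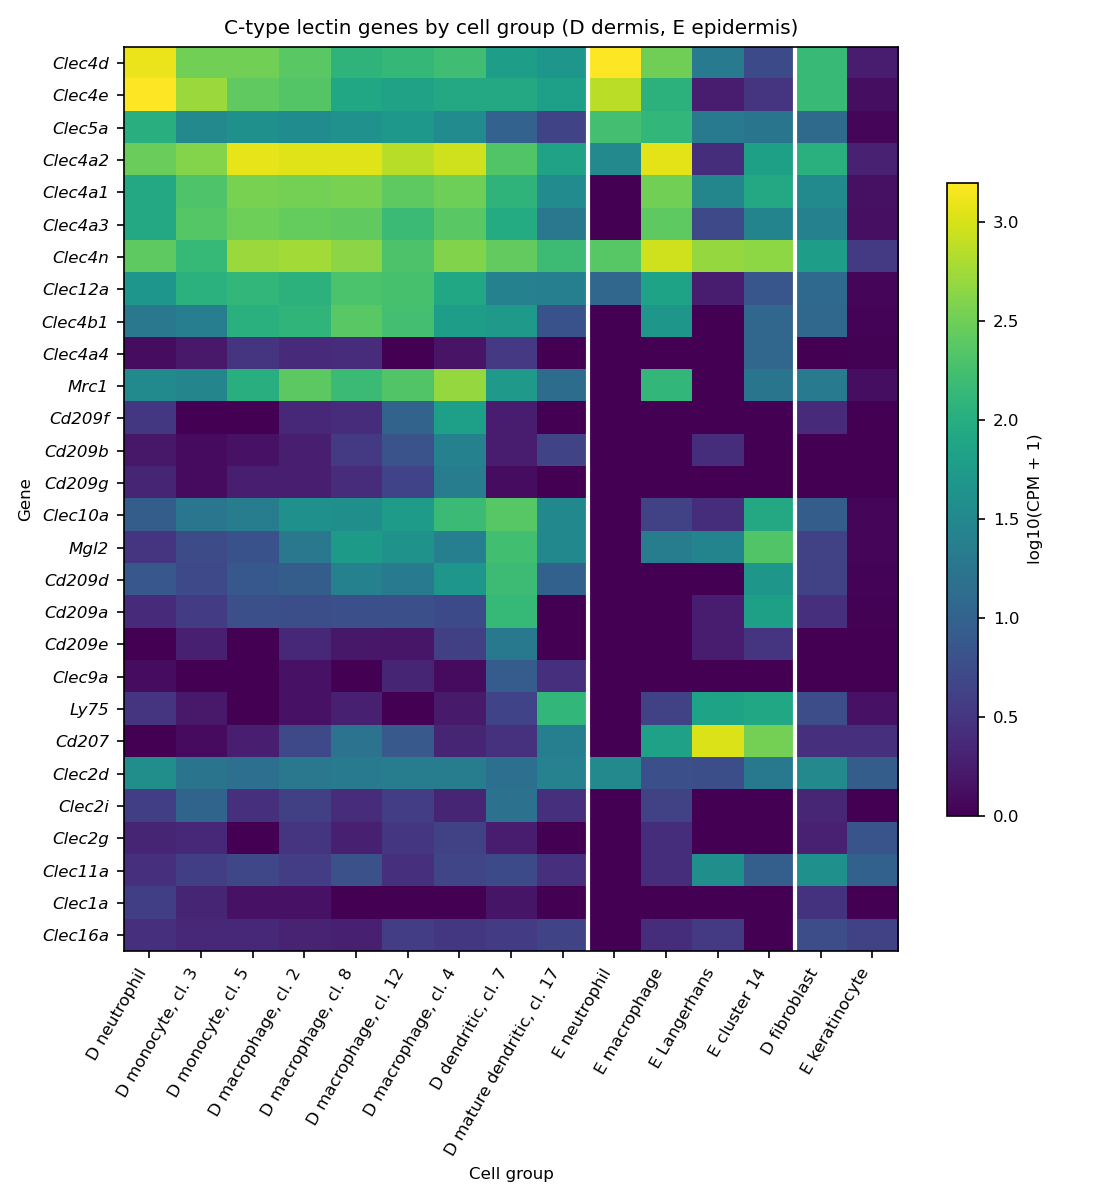
Levels of the 28 detected lectin genes (rows) in cell groups of dermis (D) and epidermis (E), as log10(CPM + 1), with dermal fibroblast-like and keratinocyte-like cells at the right for reference. *Clec4d* and *Clec4e* are brightest in neutrophils, *Clec4a2* in monocytes and macrophages, *Cd207* in Langerhans cells, and *Cd209f*, *Cd209b* and *Cd209g* in macrophage cluster 4.

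Neutrophils. The FcRγ-coupled pair *Clec4d* and *Clec4e* was the main lectin output of neutrophil-like cells in both tissues. In dermal neutrophil-like cells *Clec4e* reached 1580 CPM (1538 to 1623) and *Clec4d* 1281 CPM (1243 to 1319). Each was found in over 90% of the cells, 91.4% for *Clec4e* and 92.2% for *Clec4d*, and 605 of the 701 cells held both. With every cell thinned to 1000 UMIs, *Clec4d* was found in 68.8% of neutrophil-like (65.1 to 72.3) and 13.7% of fibroblast-like cells (10.3 to 17.7). These cells, with a median of 3623 UMIs against 9374 in the fibroblast-like cells, held 46.0% of all dermal *Clec4e* UMIs.

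In the 38 epidermal neutrophil-like cells *Clec4d* exceeded *Clec4e*. *Clec4d* stood at 1544 CPM (1307 to 1810) and *Clec4e* at 746 CPM (585 to 938), so that the ratio of *Clec4e* to *Clec4d* UMIs was 0.483 there and 1.23 in dermal neutrophil-like cells. The epidermal values rest on 73 *Clec4e* and 151 *Clec4d* UMIs. The ratio was below 1 in the other named epidermal groups with both genes too. It was 0.349 in macrophage-like, 0.403 in keratinocyte-like and 0.0417 in Langerhans cell-like cells, the last on 1 *Clec4e* UMI. In the dermis it was below 1 in macrophage-like (0.718), T cell-like (0.866), Schwann cell-like (0.912) and fibroblast-like cells (0.993). It was above 1 in other dermal classes, such as monocyte-like (1.32) and dendritic cell-like cells (1.34). A ratio below 1 was thus particular neither to neutrophil-like cells nor to the epidermis. Tissue and library cannot be told apart in the epidermal ratios. *Clec5a*, a receptor that signals through the adaptor encoded by *Tyrobp*, was at 101 CPM (90.3 to 112) in dermal and 174 CPM (101 to 278) in epidermal neutrophil-like cells, 2.99-fold above the 33.7 CPM of monocyte-like cells in the dermis (2.52 to 3.55).

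Between dermal neutrophil- and monocyte-like cells, 13 of the 17 lectin genes with enough UMIs differed at least 2-fold, where 32.3% of all genes did so. The median log2 ratio was −0.46 over all genes and −1.15 over the lectin genes. The 4 higher in neutrophil-like cells were *Clec4d* (3.90-fold, 3.70 to 4.10), *Clec4e* (3.64-fold, 3.48 to 3.81), *Clec5a* and *Clec2d*, a ligand of NK cell receptors, with 37.1 against 15.2 CPM. *Clec2d* was also at 30.7 CPM in fibroblast-like cells.

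The 9 lower genes included *Clec4a1*, *Clec4a3* and *Clec4a2*. *Clec4a1* was at 84.8 CPM in neutrophil-like against 260 CPM in monocyte-like cells, *Clec4a3* at 83.3 against 253 CPM and the inhibitory *Clec4a2* at 296 against 685 CPM. *Clec4b1* (18.1 against 52.2 CPM) and the inhibitory receptor gene *Clec12a* (47.4 against 116 CPM) followed. The remaining 4, *Clec10a*, *Clec2i*, *Mgl2* and *Cd209a*, were below 20 CPM on both sides, and the interval of *Cd209a* spanned equal levels. By the rule above, *Mgl2* was not distinguished from fibroblast-like cells on either side, and *Clec10a* and *Cd209a* were not in neutrophil-like cells. *Clec4n* was at 254 against 271 CPM. Several of these calls depended on the processing. Without clusters 2 and 5 (added once the data had been seen), the log2 ratios of *Clec4a2* and *Clec4b1* were −0.46 and −0.30, under 2-fold. With the top Scrublet scores kept, that of *Clec4a2* was −0.91, those of *Clec10a* and *Cd209a* −0.57 and −0.90, and that of *Mgl2* turned to 0.53.

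**Figure D2:**
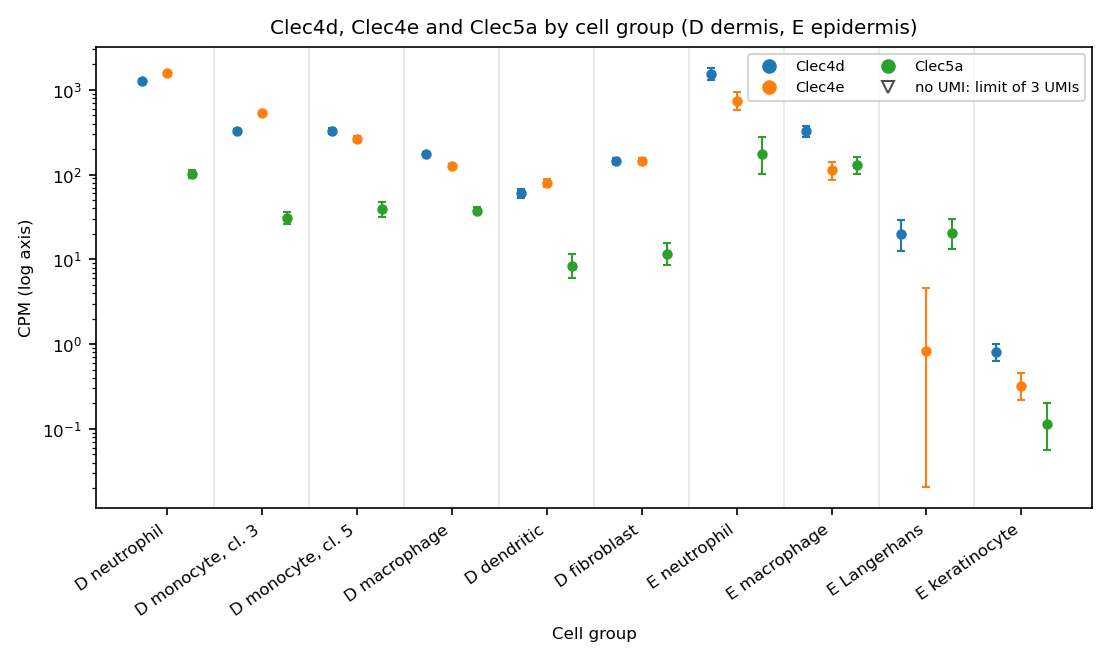
*Clec4d*, *Clec4e* and *Clec5a* in CPM (log axis) by cell group of dermis (D) and epidermis (E), with exact 95% Poisson intervals. Dermal neutrophils stand highest for *Clec4e* at 1580 CPM, while dermal dendritic cells lie below the 144 CPM of fibroblasts.

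Monocytes and macrophages. With clusters pooled, *Clec4a2* led both classes, at 1003 CPM (986 to 1020) in dermal macrophage-like and 685 CPM (666 to 705) in monocyte-like cells. It was found in 95.5% and 84.5% of the cells. In monocyte-like cluster 3 alone, *Clec4e* stood above *Clec4a2*, as given below. *Clec4n* followed in macrophage-like cells at 437 CPM (426 to 448) and *Clec4a1* at 322 CPM (312 to 331). Monocyte-like cells held *Clec4e* at 434 CPM (418 to 450) and *Clec4d* at 329 CPM (315 to 343) next to *Clec4a2*. The macrophage-like level of *Clec4e*, 126 CPM, was below the 144 CPM of fibroblast-like cells.

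Against monocyte-like cells, 13 of 25 lectin genes differed at least 2-fold in dermal macrophage-like cells, where 17.6% of all genes did. Higher were 11 genes. The mannose receptor gene *Mrc1* stood at 297 against 54.1 CPM (5.50-fold, 4.94 to 6.13), *Mgl2* at 31.1 against 4.81 CPM, *Clec10a*, a receptor for galactose-type sugars, at 76.3 against 18.5 CPM, *Cd209d* at 25.3 against 4.95 CPM and *Clec4b1* at 136 against 52.2 CPM. Dermal T cell-like cells (270 cells) had *Mrc1* at 61.5 CPM. This was above the 54.1 CPM of monocyte-like, 48.0 CPM of dendritic cell-like and 31.9 CPM of neutrophil-like cells. The source of the T cell-like *Mrc1* UMIs was not tested. The 2 lower genes were *Clec4e* (3.43-fold, 3.23 to 3.64) and *Clec2i*, with 29 against 48 UMIs. At a clustering resolution of 0.5, where clusters 2, 5 and 8 formed a single monocyte-like cluster, the log2 ratios of *Mgl2*, *Clec4b1* and *Cd207* were 0.32, 0.29 and 0.15 and no longer 2-fold, while that of *Mrc1* was 1.30, that of *Cd209d* 1.42 and that of *Clec10a* 1.89.

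*Cd209f* was found on 1 side only. It had 303 UMIs in macrophage-like and 0 in monocyte-like cells, at least 49.6-fold higher when set against a floor of 3 UMIs over the monocyte-like cells. *Cd209b* (SIGN-R1) had 127 against 2 UMIs, *Cd209g* 105 against 3 and *Cd207* 86 against 3. *Cd209e* (22 against 4 UMIs) and *Clec2g* (31 against 6 UMIs) passed with few UMIs, and at resolution 0.5 their log2 ratios of 0.70 and 0.78 were under 2-fold. *Clec2g* was not distinguished from fibroblast-like cells on either side. *Clec4a3* was at 246 against 253 CPM and *Clec12a* at 130 against 116 CPM.

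The macrophage-like clusters were not alike. Cluster 4 (410 cells, led by *Ccl8*, *Cd163* and *Folr2*) carried 6 of the 8 markers of resident-type macrophages. Set against the other macrophage-like clusters, 9 of 24 lectin genes differed at least 2-fold in it, where 9.55% of all genes did. *Mrc1* stood at 494 against 210 CPM, *Clec10a* at 153 against 42.2 CPM and *Cd209d* at 47.5 against 15.4 CPM. *Cd209e* had 13 against 9 UMIs. Lower in cluster 4 were *Clec4b1* (58.7 against 171 CPM) and *Cd207* (1.16 against 8.38 CPM).

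*Cd209f*, *Cd209b* and *Cd209g* were concentrated in few cells of cluster 4. *Cd209f* was at 63.8 CPM (56.5 to 71.8) there and 2.90 CPM in the other macrophage-like cells, 22.0-fold apart (14.9 to 33.7). Its 275 UMIs lay in 28 of the 410 cells, and the 5 richest cells held 76.7% of them, 1 cell alone 116. *Cd209b* was 10.7-fold and *Cd209g* 13.4-fold higher, in 21 and 22 cells. The cells overlapped in part. Of the 28 cells with *Cd209f*, 15 also held *Cd209g* and 12 held *Cd209b*, where independent detection would give 1.5 and 1.43 cells. All 28 held *Mrc1*, itself found in 357 of the 410 cells. With cells thinned to 1000 UMIs, 3 of 10 cells with *Cd209f* held *Cd209g* and 1 held *Cd209b*.

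**Figure D3:**
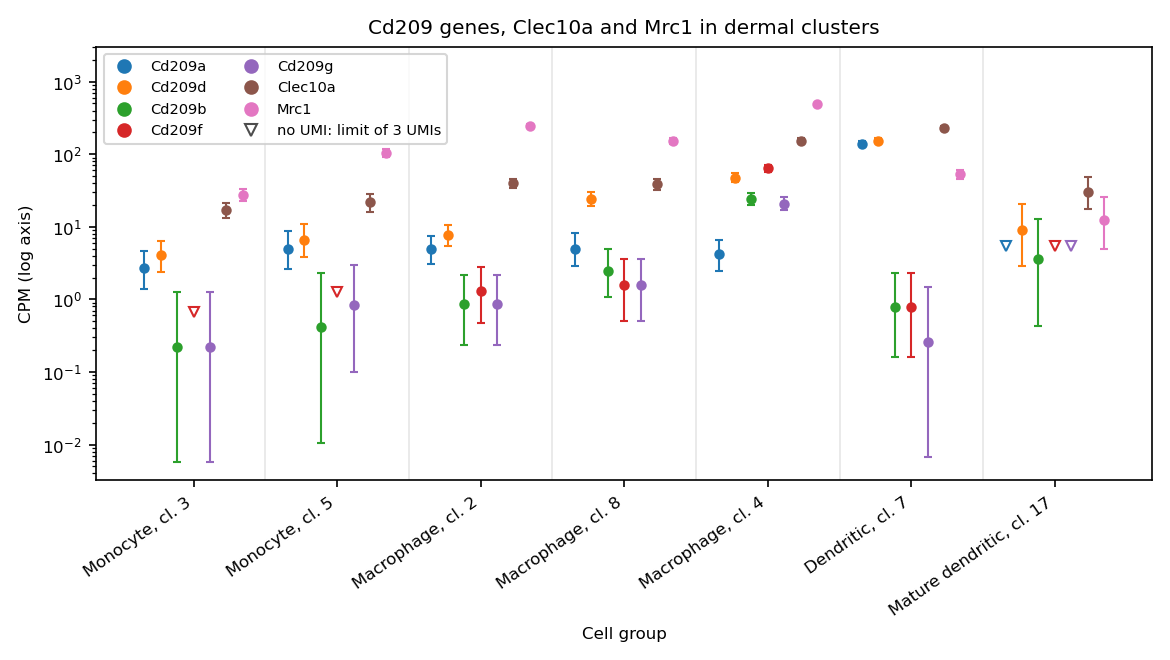
*Cd209* genes, *Clec10a* and *Mrc1* in CPM (log axis) in dermal clusters, with exact 95% Poisson intervals, and open triangles at the level of 3 UMIs where no UMI was found. *Cd209f*, *Cd209b* and *Cd209g* stand above 20 CPM only in macrophage cluster 4 among the 7 clusters shown, and *Cd209a* above 100 CPM only in dendritic cluster 7.

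Cluster 8 (290 cells, led by *Lpl* and *Slamf9*) had *Clec12a* at 197 CPM, *Clec4b1* at 241 CPM and *Mgl2* at 54.1 CPM, each above the other large macrophage-like clusters 2 and 4. It also held 50 of the 117 dermal *Cd207* UMIs. These 117 UMIs lay in 61 cells, 12 of them in a single cell. The 2 monocyte-like clusters differed as well. In cluster 5 against cluster 3, 6 of 17 lectin genes were at least 2-fold apart, where 11.5% of all genes were. *Clec4b1* was at 107 against 22.4 CPM, *Clec4n* at 519 against 137 CPM, *Mrc1* at 104 against 27.3 CPM and *Clec4a2* at 1205 against 406 CPM. *Clec4e* was lower, at 262 against 526 CPM, as was *Clec2i* with 4 against 44 UMIs. *Clec4d* was at 326 and 330 CPM. Within cluster 3, *Clec4e* at 526 CPM stood above *Clec4a2* at 406 CPM, unlike in the pooled class. The values of cluster 5 for *Clec4a2*, *Clec4n* and *Clec4b1* lay near those of macrophage-like cluster 2, which had 1111, 575 and 122 CPM.

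Epidermal macrophage-like cells differed from dermal ones in 12 of 24 lectin genes at least 2-fold, where 26.3% of all genes did. The dermal class includes resident-type cluster 4 (410 of 1418 cells), and the epidermal cells also passed with 5 of the 8 monocyte markers. Tissue, library and this mix of cells cannot be told apart in these ratios. *Clec4a2* was the leading gene of the epidermal cells too, at 1154 CPM (1070 to 1243). *Clec4n* stood at 926 against 437 CPM and *Clec5a* at 129 against 37.6 CPM (3.43-fold, 2.67 to 4.36). *Mrc1* and *Clec10a* were lower, *Mrc1* at 129 against 297 CPM and *Clec10a* at 3.31 against 76.3 CPM, with 2 UMIs in the epidermal macrophage-like cells. *Cd209d*, *Cd209f*, *Cd209b*, *Cd209g* and *Cd209a* had 0 UMIs in the epidermal macrophage-like cells, where 3 UMIs would be 4.96 CPM. The dermal *Cd209a* level of 4.72 CPM is below that floor, so no direction was read for it. The dermal levels of *Cd209g* (7.51 CPM) and *Cd209b* (9.09 CPM) are less than 2-fold above it, so no 2-fold difference was read for them. *Cd209a*, *Cd209g* and *Cd209b* are still among the 12 genes counted, through the pseudocount. *Clec4b1* (47.9 against 136 CPM) and *Clec2d* (3 UMIs) were lower as well. *Cd207* was higher, at 66.1 against 6.15 CPM, but 5 cells held 85.0% of its 40 UMIs and after thinning 1 of 122 cells had it. The Langerhans cell marker *Mfge8* had 35 UMIs in these cells, and *Cldn1* had 0. The part of Langerhans cell RNA in this value was not tested.

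Dendritic cells. *Clec4n* was the highest lectin gene of dermal dendritic cell-like cells, at 252 CPM (237 to 267), followed by *Clec10a* at 204 CPM (191 to 218) and *Clec4a2* at 192 CPM (179 to 206). Against macrophage-like cells, 21 of 27 lectin genes differed at least 2-fold, where 21% of all genes did, 9 of them higher and 12 lower. *Cd209a*, the mouse gene most often compared with human DC-SIGN, was at 122 against 4.72 CPM (25.7-fold, 19.9 to 33.8). *Cd209d* (SIGN-R3) was at 135 against 25.3 CPM, *Mgl2* at 153 against 31.1 CPM and *Cd209e* at 16.2 against 1.57 CPM.

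*Clec9a*, whose product binds exposed actin of dead cells and marks cross-presenting type 1 dendritic cells, had 30 UMIs in dendritic cell-like and 5 in macrophage-like cells, and 83.3% of all its dermal UMIs were in the former. In cluster 7 it was found in 26 of 313 cells, of which 3 also held the type 1 marker *Xcr1*, found in 7 cells. None of these 7 cells held *Cd209a* or *Cd209d*, each or both of which were found in 153 of the 313 cells. *Clec2i* (13.2 against 2.07 CPM) and *Clec4a4* (9 against 14 UMIs) were the remaining higher genes beside *Ly75* and *Clec10a*. *Clec10a* missed 2-fold at resolution 0.5, with a log2 ratio of 0.99, and *Clec4a4* did without the cycling cluster 12, with 0.87.

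The 12 lower genes included *Clec4a2*, *Clec4a1* (109 against 322 CPM), *Clec4a3* (81.3 against 246 CPM), *Clec12a* (24.4 against 130 CPM), *Clec4b1* (46.8 against 136 CPM) and *Mrc1* (48.0 against 297 CPM). *Cd209f*, *Cd209g* and *Cd209b*, the genes of macrophage cluster 4, had 3, 1 and 5 UMIs in dendritic cell-like cells. *Clec2g* had 3. *Clec5a* (8.45 CPM) and *Clec4d* (59.8 CPM) were below the levels of fibroblast-like cells.

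Mature dendritic cell-like cluster 17 (41 cells, led by *Ccl22* and *Fscn1*) did not show this pattern. It also passed with 6 of the 8 Langerhans cell markers, and the part of Langerhans cells in it was not tested. Of 20 lectin genes, 15 differed at least 2-fold from cluster 7, where 31.5% of all genes did, and 13 of them were lower. *Cd209a* had 0 UMIs against 532, at least 26.0-fold lower with a floor of 3 UMIs over cluster 17, and *Cd209d* stood at 8.92 against 154 CPM, *Clec10a* at 30.3 against 229 CPM and *Mgl2* at 30.3 against 171 CPM. *Cd209e* had 0 UMIs. *Clec4b1*, *Clec2i*, *Clec4a3*, *Mrc1*, *Clec4a1*, *Clec4a2*, *Clec9a* and *Clec5a* were lower by 2.57- to 9.89-fold, the last 2 with intervals that spanned equal levels. *Ly75*, an endocytic receptor that delivers antigen to lysosomes, was higher, at 132 (104 to 166) against 3.41 CPM (38.8-fold, 21.3 to 76.2), in 24 of the 41 cells. *Cd207* had 13 against 7 UMIs. Cluster 17 held 74 of the 87 *Ly75* UMIs of the dendritic cell-like class.

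**Figure D4:**
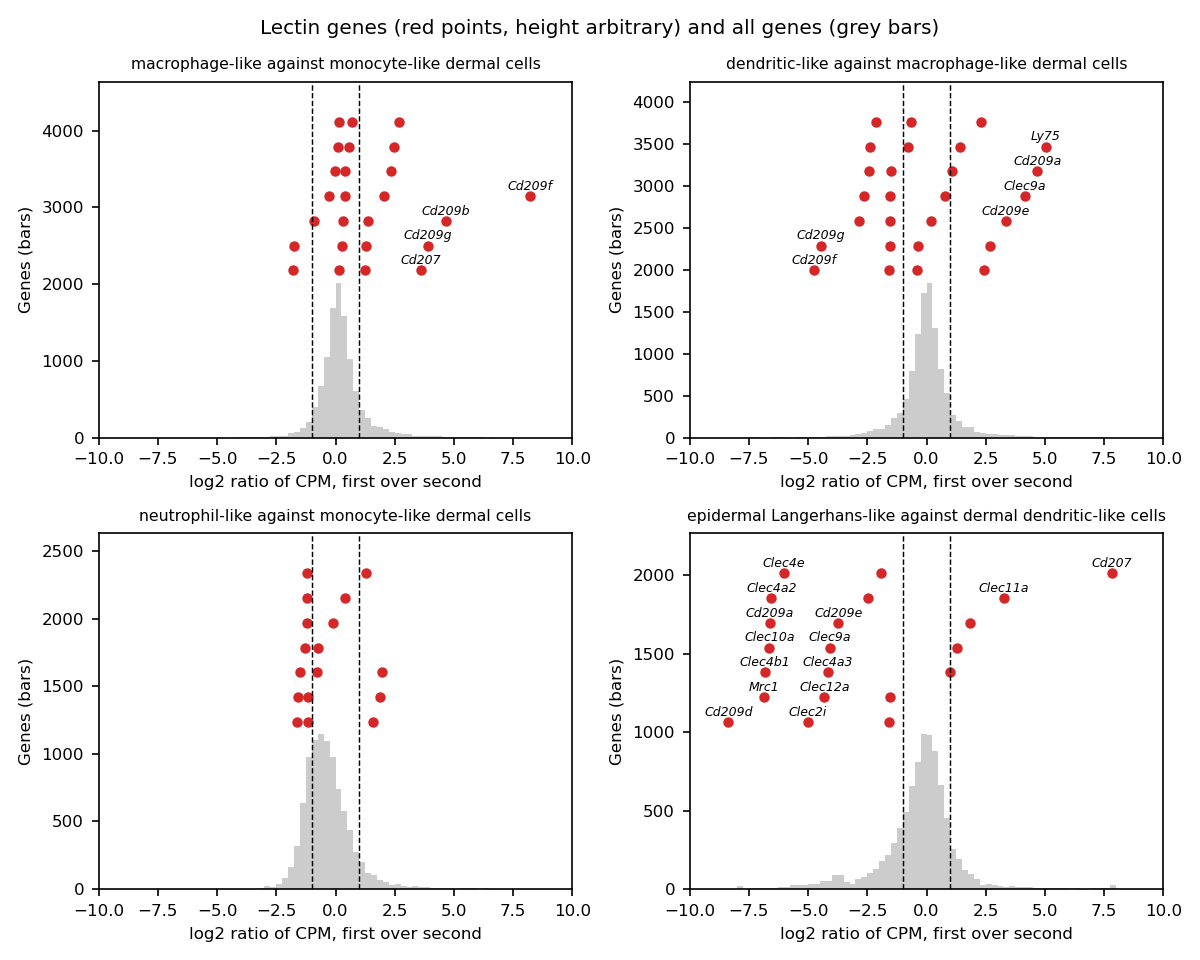
Log2 ratios of CPM for the lectin genes (red points, height without meaning) over the distribution of all genes (grey bars, the outermost of which also hold genes beyond them) in 4 comparisons. Dashed lines mark 2-fold, and names are given to genes at least 8-fold apart.

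Langerhans cells. *Cd207* encodes langerin, the lectin of Birbeck granules. It stood at 1071 CPM (1013 to 1131) in Langerhans cell-like cells, in 143 of 152 cells, and at 1.70 CPM in keratinocyte-like cells of the same library. After thinning it was found in 53.1% of the former (44.7 to 61.3) and 0.173% of the latter. *Clec4n* came next at 497 CPM (458 to 538), in 125 cells, and then *Ly75* at 71.5 CPM (57.3 to 88.2), in 62 cells.

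Few other lectin genes were found there. Against dermal dendritic cell-like cells, 20 of 21 lectin genes differed at least 2-fold, where 34% of all genes did, and 16 were lower. *Cd207* was 234-fold higher (151 to 385), *Clec11a*, a secreted growth factor, 9.74-fold (37.8 against 3.88 CPM), *Ly75* 3.60-fold (2.64 to 4.90) and *Clec5a* 2.43-fold (20.5 against 8.45 CPM). Keratinocyte-like cells of the epidermal library had *Clec11a* at 8.89 CPM and held 853 of its 917 UMIs there. *Clec4n* missed 2-fold with a log2 ratio of 0.98, and *Clec5a* did under the stricter cell filter and with the top Scrublet scores kept, with 0.98 and 0.95.

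Of the 16 lower genes, several had few or no UMIs in Langerhans cell-like cells. *Clec4a2* had 2 UMIs against 842, *Clec10a* 2 against 892, *Cd209a* 1 against 532, *Cd209e* 1 against 71 and *Clec12a* 1 against 107. *Cd209d*, *Mrc1*, *Clec4b1*, *Clec2i* and *Clec9a* had 0, where 3 UMIs would be 2.47 CPM, so that *Cd209d* was at least 54.8-fold and *Mrc1* at least 19.5-fold lower. *Mgl2* (27.1 against 153 CPM), *Clec4a1* (28.8 against 109 CPM) and *Clec4a3* (5 against 356 UMIs) were lower as well. *Clec4e*, *Clec4d* and *Clec2d* were also lower, but their dermal levels were below those of fibroblast-like cells. As the tissues are separate libraries and the dermal one held these lectin UMIs in fibroblast-like cells too, tissue and library cannot be told apart in these ratios.

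Epidermal cluster 14 (57 cells, led by *Ccl22*, *Il4i1* and *Ccl17*) stayed unnamed, with 7 of 8 Langerhans cell and 6 of 8 mature dendritic cell markers. Against Langerhans cell-like cells, 9 of its 12 lectin genes differed at least 2-fold, where 16% of all genes did. *Mgl2* was at 212 against 27.1 CPM, *Clec10a* at 83.1 against 1.64 CPM, *Cd209a* at 64.4 against 0.822 CPM, *Clec4a2* at 64.4 against 1.64 CPM and *Clec4a1* at 85.2 against 28.8 CPM. *Cd209d* had 23 UMIs against 0. *Cd207* was lower, at 335 against 1071 CPM, as were *Clec11a* and *Clec4d* with 4 and 2 UMIs.

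Under the stricter filter of the methods (at most 5000 genes and 5% mitochondrial UMIs), 27 cells of cluster 14 fell into each of 2 clusters with different lectins. The mature dendritic cell-like one (28 cells) had *Cd207* at 631 CPM (536 to 738), *Ly75* at 141 CPM (98.0 to 196) and no UMI of *Cd209a*, *Cd209d*, *Clec10a* or *Clec4a2*. The dendritic cell-like one (27 cells) had *Cd207* at 42.3 CPM (20.3 to 77.9), *Cd209a* at 131 CPM, *Cd209d* at 97.4 CPM, *Clec10a* at 169 CPM and *Clec4a2* at 131 CPM. *Clec4n* was at 221 and 694 CPM, and *Mgl2* at 157 and 267 CPM, in that order. The Langerhans cell marker *Mfge8* had 2250 and 21 UMIs, and the maturation marker *Ccr7* 70 and 3. The dendritic cell-like part thus resembled dermal cluster 7 in *Cd209a*, *Cd209d*, *Clec10a* and *Mgl2*. Its *Cd207* and *Clec4n* levels were above those of the whole dermal dendritic cell-like class, cluster 17 included, which had 4.57 and 252 CPM. The *Cd207* level rests on 10 UMIs, and epidermal macrophage-like cells had 66.1 CPM. Tissue and library cannot be told apart in the comparisons with dermal cells. The mature part combined *Cd207* with the *Ly75* level of dermal cluster 17, which had 132 CPM. These clusters were seen after the data were clustered, and the comparison is a description.

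**Figure D5:**
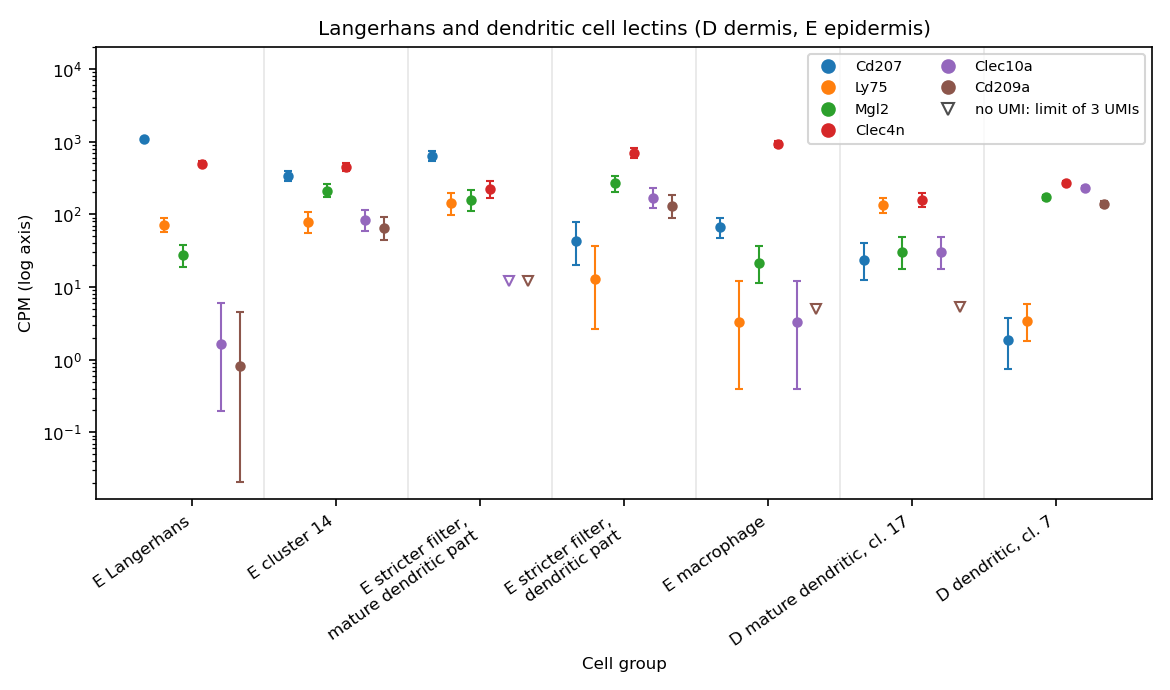
Levels of lectin genes in CPM (log axis) in Langerhans and dendritic cell groups of epidermis (E) and dermis (D), with exact 95% Poisson intervals, and open triangles at the level of 3 UMIs where no UMI was found. *Cd207* is highest in Langerhans cells at 1071 CPM, and *Cd209a* and *Clec10a* appear in the dendritic but not in the mature part of epidermal cluster 14.

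Signalling genes. A list of 21 adaptor, kinase, phosphatase and cytokine genes downstream of these receptors was set beside them. *Fcer1g*, the adaptor of *Clec4d*, *Clec4e* and *Clec4n*, was present in all these classes, at 4708 CPM in dermal neutrophil-like, 4780 in monocyte-like, 4391 in macrophage-like, 2116 in dendritic cell-like and 1234 in Langerhans cell-like cells. Dermal fibroblast-like cells had it too, at 865 CPM and in 90.8% of cells. In neutrophil- against monocyte-like cells, 5 of 20 passing genes were at least 2-fold higher and 1 was lower. *Il23a* stood at 62.9 against 3.64 CPM, *Tnf* at 640 against 110 CPM, *Il1b* at 6304 against 1545 CPM and *Syk* at 120 against 57.4 CPM. *Hcst* was the remaining higher gene and *Il10* the lower one. The median log2 ratio of the list was −0.01. Of all genes, 32.3% were at least 2-fold apart, 8.17% higher and 24.2% lower. The list's count is thus near the background only with both directions pooled. More of its genes were higher than lower, the reverse of all genes.

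In macrophage- against monocyte-like cells none of 20 was at least 2-fold higher and 3 were lower, *Il6*, *Il1b* and *Plcg2*. Of all genes, 17.6% were at least 2-fold apart. Fibroblast-like cells had *Il1b* at 639 CPM, above the 528 CPM of macrophage-like cells. Their *Il6*, at 75.3 CPM, was above both classes (10.0 and 54.8 CPM). Their *Plcg2*, at 5.96 CPM, was below both. In dendritic cell- against macrophage-like cells 3 of 21 were higher, among them *Malt1* (113 against 32.3 CPM), and 2 lower, beside 21% of all genes. The dendritic cell-like count is near its background. The macrophage-like count is so only with both directions pooled. There, 12.49% of all genes were higher and 5.10% lower, while the list had lower genes only. In Langerhans cell-like against dermal dendritic cell-like cells 1 of 20 was higher and 9 were lower, where 34% of all genes were at least 2-fold apart and 22.7% lower. The higher gene was *Card9*, the adaptor below SYK, at 38.6 against 9.59 CPM on 47 and 42 UMIs, while *Syk* itself was at 13.1 against 41.6 CPM.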

How the data were processed

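Single-cell 3′ libraries (10x Genomics Chromium v3) were made from 1 dermal and 1 epidermal cell suspension. The authors counted UMIs per gene and cell with CellRanger (3.0.2 in the matrix headers, genome build mm10 per the submitters' processing notes) and deposited raw counts for 5376 dermal and 5258 epidermal cells, without normalization. How many mice each library drew on is not given in the sources used here. The labels give an age of 10 week, and the methods seven-week-old males. For the dermis the labels speak of live cells, and the methods of CD45+ live cells.

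Cells with at least 200 genes and at most 10% mt- UMIs were kept (4747 and 4173). As Scrublet's own threshold marked 0 and 8 cells, the top Scrublet scores were removed at 0.8% per 1000 cells (180 and 139 cells). Kept cells had medians of 6866 and 25547 UMIs. Each library was clustered in scanpy 1.11.5 without the lectin genes (2000 variable genes, 20 principal components, 20 neighbours, Leiden resolution 1). A name required 3 or more listed markers, each detected in 25% of the cluster and 2-fold higher than elsewhere. It was withheld if the 10 leading genes held more markers of a different type, or if the cluster was over 3-fold shallower than its library and led by none of the markers. Keratinocyte-like clusters were named in a second pass against the named ones. The thresholds were set after the clusters were seen.

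UMIs were summed per class and divided by the class total (CPM). Ratios took a pseudocount of 0.5 UMI for log2 values and exact conditional intervals (scipy 1.17.1), over genes with at least 20 UMIs in both groups together, and were tested on simulated data. Shares carry Clopper-Pearson intervals. Genes were named by this rule: at least 20 UMIs in the myeloid classes, with fuller values where a gene was among the 3 highest of a class or at least 2-fold apart. Genes under that minimum (*Clec3b*, *Clec14a*, *Clec2l* and *Clec12b*) are given with values for other classes, chosen after their values were seen. The genes and lists, and the 5 comparisons of single clusters or of macrophage-like cells between tissues, were chosen with earlier results of these data known. Alternatives changed the cell filter, doublets, depth, clustering, summary, richest cell, UMI minimum and pseudocount.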

Additional observations from a re-analysis of the deposited data

How the results depend on the processing

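No paired analysis was possible because there was a single library for each tissue. Over 12 alternatives, the counts of lectin genes at least 2-fold apart and of genes detected moved by no more than 1.5 times in 53 of 56 cases. With cells thinned to 1000 UMIs, where fewer genes reach 20 UMIs, 7 genes in place of 13 differed between macrophage- and monocyte-like cells, 11 in place of 20 between Langerhans and dermal dendritic cell-like cells, and 18 in place of 28 were detected. Of single log2 ratios, 738 kept their side of 2-fold or moved little, 24 moved and 1 turned: *Mgl2* in neutrophil- against monocyte-like cells went from −1.15 to 0.53 with the top Scrublet scores kept, and the cause was not tested. At resolution 0.5, where dermal clusters 2, 5 and 8 formed a single monocyte-like cluster, macrophage- against monocyte-like log2 ratios were 0.15 for *Cd207*, 0.32 for *Mgl2* and 0.29 for *Clec4b1*. Leaving out clusters 2 and 5, the cycling cluster 12 or the mature cluster 17 was chosen after seeing the data. Without clusters 2 and 5, *Clec4a2* and *Clec4b1* in neutrophil- against monocyte-like cells moved to −0.46 and −0.30.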

Other observations

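Some lectin genes had their highest level outside the myeloid classes. *Clec10a* reached 683 CPM (559 to 826) in dermal mast cell-like cells, above the 204 CPM of dendritic cell-like cells, on 106 UMIs in 49 of 120 cells. These cells were shallow, with a median of 863 UMIs, and after thinning, which only 42 of them allowed, *Clec10a* was found in 35.7% of them (21.6 to 52.0) against 11.9% of dendritic cell-like cells. *Mgl2*, which shares sequence with it, had 0 UMIs there, and *Clec12b* had 8.

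*Clec3b* (tetranectin), with 194 UMIs, and *Clec11a*, with 163, were found in dermal fibroblast-like cells at 46.2 and 38.8 CPM. In cluster 19 (29 cells, led by *Cytl1*, *Myoc* and *Comp*) *Clec11a* reached 180 CPM (143 to 223), against 21.9 CPM in fibroblast cluster 6. *Clec14a*, known from endothelium, had 29 of its 73 dermal UMIs in fibroblast-like, 21 in endothelial-like and 19 in Schwann cell-like cells. By CPM it was highest in Schwann cell-like cells, at 63.7 CPM, and next in endothelial-like cells, at 29.6 CPM, with overlapping intervals. *Clec2g* and *Clec2l* had 560 and 328 UMIs in keratinocyte-like cells, at 5.83 and 3.42 CPM. *Clec2i* was at 21.7 CPM in dermal basophil-like cells, on 24 UMIs, against 13.2 CPM in dendritic cell-like cells, with overlapping intervals. *Clec1a* and *Clec16a* were not distinguished from fibroblast-like cells in any dermal myeloid class. *Clec1a* was highest in Schwann cell-like cells, at 30.2 CPM on 9 UMIs. *Clec16a* had 305 UMIs in keratinocyte-like cells, at 3.18 CPM.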
